A study of Mus musculus with 8 samples.

Results

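The MAPK phosphatases Dusp1, Dusp2, Dusp4, Dusp5, Dusp6 and Dusp10 and the Sprouty and Spred genes Spry1, Spry2, Spred1 and Spred2 were examined in regulatory T (Treg) cells with and without Foxp1. They were taken by gene symbol from the deposited count table, where each symbol matched 1 row, and are 10 of 27594 genes listed. All 10 passed the filter on low counts. Spry2 passed it with at most 13 counts in any library and with 10 or more only in the aTreg groups, so its differences between subsets were partly fixed by the filter.

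Mitogen-activated protein kinases carry signals from the T cell receptor, costimulatory receptors and cytokine receptors through chains of kinases. The chain that ends in ERK lies below the small GTPase RAS. The kinase at the end of each chain, ERK, JNK or p38, is switched on by phosphates on a threonine and a tyrosine, and dual-specificity phosphatases (the Dusp genes) remove both. Sprouty and Spred proteins act higher up, at or near RAS and RAF. Many of these brakes are transcribed in response to the pathway they inhibit, so they form negative feedback loops.

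The study compared rTreg cells, CD4+YFP+ resting cells sorted by low CD44 and the level of a further surface marker, with aTreg cells, CD4+YFP+ activated cells sorted by high CD44 and the level of that marker, from spleen and peripheral lymph nodes of C57BL/6 mice aged 6 to 8 weeks. WT mice carried Foxp3-YFP-Cre alone and Foxp1-deficient mice (the cKO of the labels) carried Foxp1fl/fl Foxp3-YFP-Cre, so the Cre that is expressed from Foxp3 was present in every group and the floxed alleles were the difference. Each of the 4 groups had 2 RNA sequencing libraries, and the sources used here do not say how many mice went into a library. The fit takes the replicate number of the libraries as a block. The p-values therefore measure the spread that remains between libraries after the difference between replicate numbers is taken out. By Xist and Ddx3y (below) the 2 libraries of a group differ in sex, so they are not technical repeats of the same mice. How far the remaining spread reflects differences between mice is not known.

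Library totals ran from 6373170 counts (Foxp1-deficient rTreg cells, replicate 1) to 15268623 counts (WT aTreg cells, replicate 2). At that depth, 3 counts, the lowest level taken as measurable, stood for 0.192 to 0.478 CPM (counts scaled to library size with TMM factors), and this floor covers counting error only. Cd3e, Cd4, Foxp3, Il2ra, Ctla4 and Ikzf2 were detected in every library, Foxp3 at 429 to 646 CPM. Cd44 differed between subsets in the direction of the sort gate. Foxp1 itself was at 353 and 384 CPM in WT rTreg cells against 342 and 338 in Foxp1-deficient rTreg cells (log2 fold change -0.12, SE 0.094, adjusted p = 0.46), and at 234 and 230.3 against 126 and 102 in aTreg cells (log2 fold change -1.03, SE 0.10, adjusted p = 0.00194). The counts are summed over the whole gene and the floxed exons are not named in the labels, so the whole-gene count checks the genotype labels only where it differed, in aTreg cells. Every replicate 2 library had at least 15098 counts of Xist and none of Ddx3y, and every replicate 1 library had at most 3 of Xist and at least 853 of Ddx3y, so the replicate number also separates sexes.

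Where the promoter sequences were given, they were searched for sites of factors known to act below MAPK signalling and for a forkhead site. The windows are RefSeq promoters of GRCm38.p6, 300 bases each, from 250 before to 50 after the start of the gene, and 9 of the 10 genes matched an entry (all except Dusp4). Both strands were searched for the cAMP response element TGACGTCA, the AP-1 site TGACTCA or TGAGTCA, the forkhead site TGTTTAC, the ETS site CCGGAAGT, the EGR site GCGTGGGCG and the CArG box bound by serum response factor. None of these motifs shares its whole letters with another in the list. Of 32851 promoters, 1.79% held the cAMP response element, 5.2% the AP-1 site, 3.65% the forkhead site, 3.89% the ETS site, 0.612% the EGR site and 1.63% a CArG box.

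Only Dusp1 and Dusp5 held a match, 2 of the 9 windows. They are shown beside Dusp6, whose window held none, because Dusp1 and Dusp5 are among the genes with the largest difference between replicate numbers and Dusp6 is the gene whose genotype difference depended on the subset. Capitals mark the matches. The Dusp1 window lies at chr17:26508423-26508722 on the minus strand, the Dusp5 window at chr19:53528895-53529194 on the plus strand and the Dusp6 window at chr10:99262981-99263280 on the plus strand.
Dusp1: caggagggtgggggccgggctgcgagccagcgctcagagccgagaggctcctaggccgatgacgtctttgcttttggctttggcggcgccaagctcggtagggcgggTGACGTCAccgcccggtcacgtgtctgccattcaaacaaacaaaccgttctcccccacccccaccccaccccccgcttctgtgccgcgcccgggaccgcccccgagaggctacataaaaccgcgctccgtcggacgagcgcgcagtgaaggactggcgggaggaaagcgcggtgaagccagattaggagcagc
Dusp5: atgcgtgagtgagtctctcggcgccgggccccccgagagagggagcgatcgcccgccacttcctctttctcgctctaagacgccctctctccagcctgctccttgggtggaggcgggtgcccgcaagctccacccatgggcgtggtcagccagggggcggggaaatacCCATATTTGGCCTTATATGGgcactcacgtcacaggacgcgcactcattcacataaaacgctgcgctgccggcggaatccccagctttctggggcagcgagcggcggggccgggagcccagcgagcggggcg
Dusp6: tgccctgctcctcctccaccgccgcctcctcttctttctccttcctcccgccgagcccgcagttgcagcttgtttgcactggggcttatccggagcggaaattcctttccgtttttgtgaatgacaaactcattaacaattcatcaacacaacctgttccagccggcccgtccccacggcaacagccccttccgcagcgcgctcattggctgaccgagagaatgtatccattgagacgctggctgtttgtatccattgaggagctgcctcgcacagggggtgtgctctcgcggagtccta
The Dusp1 match is a full cAMP response element at bases -143 to -136 from the start. Dusp5 carries adjoining CArG boxes, at bases -82 to -73 and -72 to -63. These are matches of letters in a window and no binding was measured.

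Per length of transcript, Dusp2 and Dusp1 were the most abundant of these genes and Spry2 was at or near the floor. In WT rTreg cells the deposited FPKM values were 315 and 217 for Dusp2, 304 and 84.4 for Dusp1, 111 and 27.7 for Dusp5 and 53.8 and 13.2 for Dusp4 in replicates 1 and 2. Dusp10 (24.3 and 16.2), Dusp6 (18.9 and 12.5), Spred2 (16.6 and 14.6) and Spry1 (10.4 and 7.98) followed, then Spred1 (2.9 and 2.96) and Spry2 (0.267 and 0.0367). The ranges of the 2 libraries overlapped between Dusp2 and Dusp1, Dusp1 and Dusp5, and Dusp5 and Dusp4. They also overlapped between Dusp4 and Dusp10, Dusp10 and Dusp6, and Dusp6 and Spred2. These ranges include the difference between replicate numbers, so the order is better read within each library. Within each library the order held except that Dusp4 and Dusp10, Dusp4 and Spred2, and Dusp6 and Spred2 changed places between the libraries. In WT aTreg cells Dusp1 stood first, at 619.8 and 176 FPKM, with Dusp2 at 192 and 145. The plot of CPM by library shows the same values scaled for comparison between groups.

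**Figure D1:**
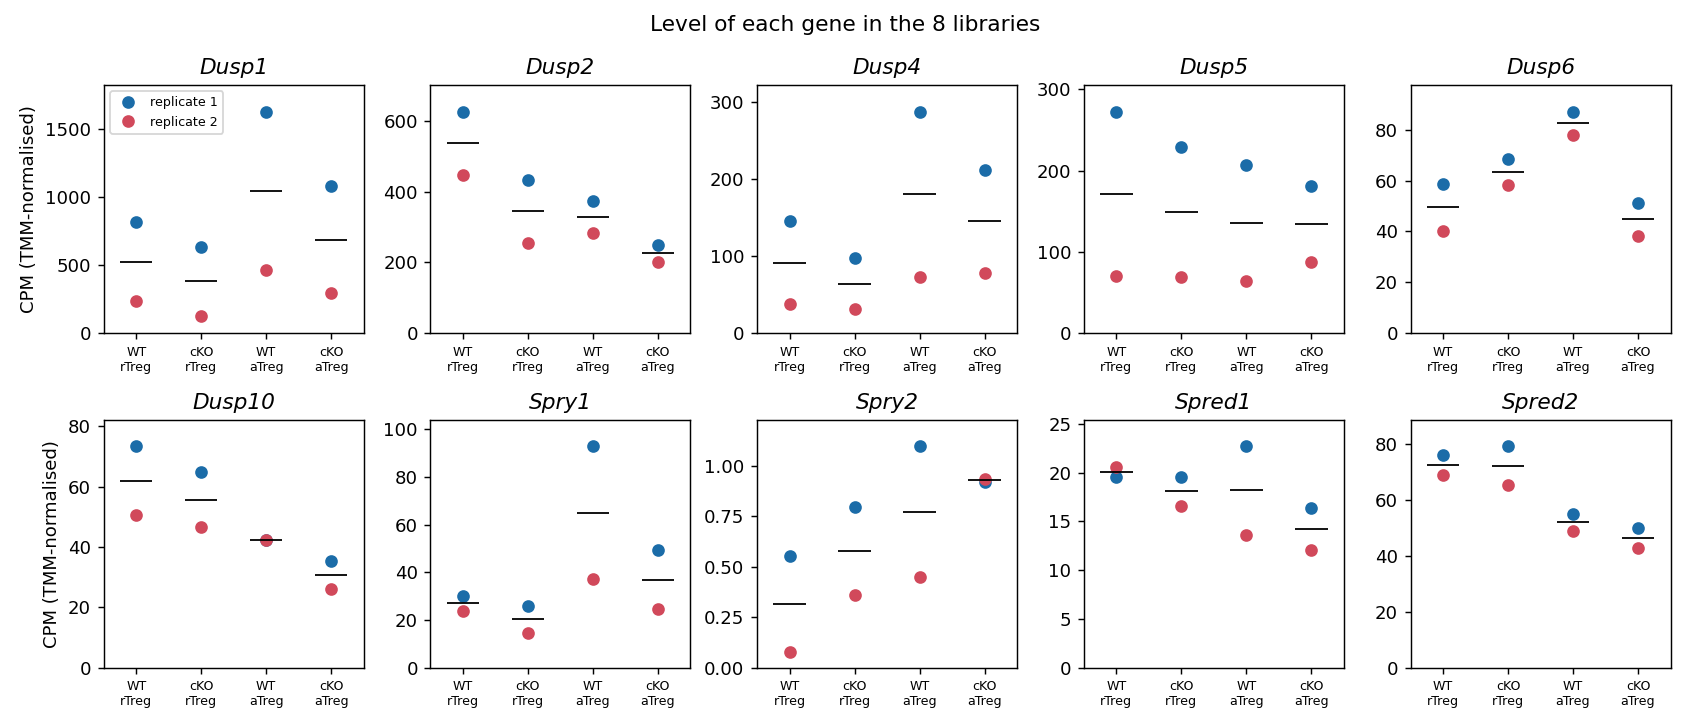
TMM-normalised CPM (y axis, linear from 0) of the 10 genes in the 4 groups (x axis), with 1 point per library coloured by replicate number and a line at the mean of the 2 libraries. Replicate 1 lies far above replicate 2 in every group for Dusp1, Dusp4 and Dusp5, while Dusp6 is lowest in WT rTreg and Foxp1-deficient aTreg cells.

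The inducible nuclear phosphatases Dusp1, Dusp2, Dusp4 and Dusp5 are products of early response genes, and Dusp1 and Dusp2 were lower in Foxp1-deficient rTreg cells. Dusp1 inactivates p38 and JNK as well as ERK and limits cytokine production in immune cells. It was measured at 814 and 234 CPM in the WT rTreg libraries, 633 and 124 in the Foxp1-deficient rTreg libraries, 1626 and 465 in the WT aTreg libraries and 1081 and 291 in the Foxp1-deficient aTreg libraries. Within each group replicate 1 was the higher library, and the libraries of WT and Foxp1-deficient cells overlapped, but within each replicate number the Foxp1-deficient library was the lower one in both subsets. Dusp1 fell 1.54-fold in Foxp1-deficient rTreg cells (log2 fold change -0.62, SE 0.12, adjusted p = 0.0201) and 1.55-fold in Foxp1-deficient aTreg cells (log2 fold change -0.63, SE 0.12, adjusted p = 0.0263). The 2 pairs of libraries gave log2 differences of -0.36 and -0.91 for rTreg and of -0.59 and -0.68 for aTreg cells. The call in rTreg cells was lost without WT rTreg replicate 2 (-0.53) or Foxp1-deficient rTreg replicate 2 (-0.38), and the call in aTreg cells without WT aTreg replicate 2 (-0.53), Foxp1-deficient aTreg replicate 1 (-0.59) or replicate 2 (-0.68). In GENCODE M21, exons of Dusp1 (chr17:26505590-26562128, minus strand) overlap those of Ergic1 on the opposite strand. The deposited FPKM values imply 2697 bases for Dusp1, against 3311 exon bases in M21. Whether the counted exons overlap Ergic1 is therefore not known. The strand setting of the counting is not given in the sources used here, so reads in any shared bases cannot be told apart.

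Dusp2, also called PAC-1, is largely restricted to haematopoietic cells. Its levels were 627 and 447 CPM in the WT rTreg libraries, 434 and 256 in the Foxp1-deficient rTreg libraries, 375 and 284 in the WT aTreg libraries and 251 and 200.03 in the Foxp1-deficient aTreg libraries. In each subset the Foxp1-deficient libraries lay below the WT libraries without overlap. It fell 1.58-fold in rTreg cells (log2 fold change -0.66, SE 0.10, adjusted p = 0.00683). In aTreg cells the difference passed the adjusted p but not the 1.5-fold limit (log2 fold change -0.54, SE 0.10, adjusted p = 0.0198), and it lost the adjusted p without WT aTreg replicate 2 (-0.48) or Foxp1-deficient aTreg replicate 1 (-0.43) or 2 (-0.66). Its call in rTreg cells was lost without WT rTreg replicate 2 (-0.67, adjusted p = 0.0524) or Foxp1-deficient rTreg replicate 2 (-0.49, adjusted p = 0.0502).

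Dusp4, or MKP-2, and Dusp5, which acts on ERK in the nucleus, were not called between genotypes. Dusp4 was at 146 and 37.2 CPM in the WT rTreg libraries, 97.1 and 30.8 in the Foxp1-deficient rTreg libraries, 288 and 73.4 in the WT aTreg libraries and 212 and 78.7 in the Foxp1-deficient aTreg libraries, with log2 fold changes of -0.44 (SE 0.14) in rTreg and -0.17 (SE 0.13) in aTreg cells. In rTreg cells its adjusted p was 0.0754, and 0.0472 with DESeq2 at a difference of -0.45, under 1.5-fold in both. Dusp5 was at 273 and 70.4 CPM in the WT rTreg libraries, 229.5 and 68.7 in the Foxp1-deficient rTreg libraries, 207 and 64.3 in the WT aTreg libraries and 181 and 87.5 in the Foxp1-deficient aTreg libraries, with -0.16 (SE 0.18) and 0.14 (SE 0.18). For both genes the libraries of a group lay further apart than the groups did.

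Between subsets, Dusp4 rose in Foxp1-deficient aTreg cells and Dusp2 was lower in aTreg cells of both genotypes. In Foxp1-deficient cells Dusp4 rose 2.37-fold (log2 fold change 1.24, SE 0.14, adjusted p = 2.86e-04), and in WT cells its difference came just short of 2-fold (log2 fold change 0.97, SE 0.13, adjusted p = 0.00115). Dusp1 was in the same position, with log2 fold change 1.00, SE 0.12, adjusted p = 7.94e-04 in WT cells and log2 fold change 0.99, SE 0.13, adjusted p = 6.15e-04 in Foxp1-deficient cells, short of the 2-fold limit. Dusp2 was lower in aTreg cells at log2 fold change -0.70, SE 0.10, adjusted p = 0.00136 in WT and log2 fold change -0.58, SE 0.10, adjusted p = 0.00259 in Foxp1-deficient cells, which passes the adjusted p but not the fold limit. The difference for Dusp5 was -0.28 (SE 0.18) in WT and 0.02 (SE 0.18) in Foxp1-deficient cells and passed neither. With edgeR on the libraries of the comparison alone, the Dusp5 difference passed the adjusted p in WT cells (-0.27, adjusted p = 0.0173), under 2-fold. In Foxp1-deficient cells it turned to 0.38 (adjusted p = 0.0305) without Foxp1-deficient aTreg replicate 1 and to -0.37 (adjusted p = 0.0437) without Foxp1-deficient aTreg replicate 2. These aTreg and rTreg cells were sequenced as bulk samples, in which fewer cells of a kind and less RNA per cell cannot be told apart.

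Dusp6, or MKP-3, is the cytoplasmic phosphatase that acts on ERK, and it was the member whose genotype difference depended on the subset by the test of that difference. Its levels were 58.8 and 40.2 CPM in the WT rTreg libraries, 68.7 and 58.4 in the Foxp1-deficient rTreg libraries, 87.2 and 78.1 in the WT aTreg libraries and 51.1 and 38.4 in the Foxp1-deficient aTreg libraries. In WT cells both aTreg libraries were above both rTreg libraries, and in Foxp1-deficient cells both aTreg libraries were below both rTreg libraries. Foxp1-deficient aTreg cells had less Dusp6 than WT aTreg cells, 1.87-fold (log2 fold change -0.90, SE 0.10, adjusted p = 0.00315), with no overlap between libraries. In rTreg cells the difference was in the other direction but under 1.5-fold, and the libraries overlapped slightly (log2 fold change 0.38, SE 0.10, adjusted p = 0.0474). That adjusted p was above 0.05 with limma-voom (0.055) and DESeq2 (0.0814), and the difference fell to 0.23 without WT rTreg replicate 2 (adjusted p = 0.335). The genotype difference in aTreg cells minus that in rTreg cells was -1.28 on the log2 scale (SE 0.14, adjusted p = 0.0242, edgeR interaction term), and each pair of libraries gave it the same sign, -0.996 and -1.56. It ranked 12 by p among the 14540 genes tested, of which 0.33% passed this test. Among the 10 genes described here, Dusp6 alone passed it. The size stayed between -1.41 and -1.13 when any 1 library was left out, but the call was lost without WT rTreg replicate 2, Foxp1-deficient rTreg replicate 1 or 2, or Foxp1-deficient aTreg replicate 1 or 2, with adjusted p between 0.0555 and 0.215. The lower level in aTreg cells lost its call only without Foxp1-deficient aTreg replicate 2 among single libraries (-0.85, adjusted p = 0.0565).

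**Figure D2:**
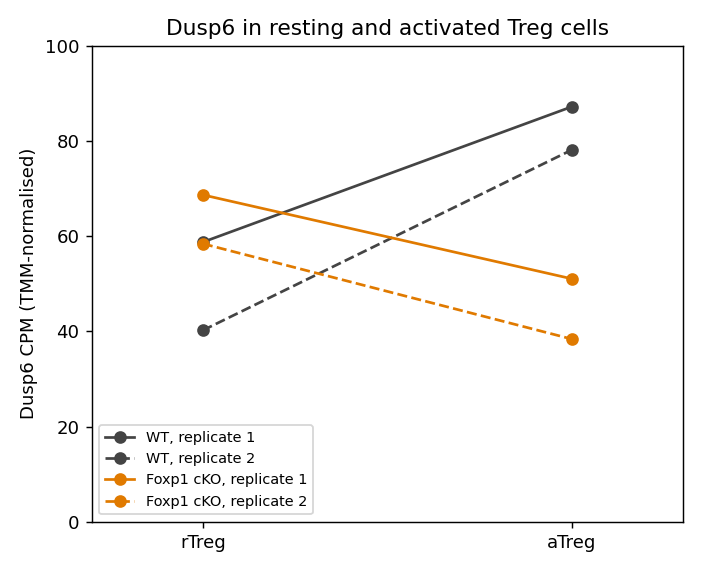
TMM-normalised CPM of Dusp6 (y axis, from 0) in rTreg and aTreg cells (x axis); each line joins the libraries of a genotype that share a replicate number. Both WT lines go up, to 78.1 and 87.2 CPM, and both Foxp1-deficient lines go down, to 38.4 and 51.1 CPM.

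Between subsets, Dusp6 was higher in WT aTreg than in WT rTreg cells (log2 fold change 0.76, SE 0.10, adjusted p = 8.80e-04) and lower in Foxp1-deficient aTreg than in Foxp1-deficient rTreg cells (log2 fold change -0.52, SE 0.10, adjusted p = 0.00457). Both passed the adjusted p and neither reached 2-fold, and the second lost the adjusted p without Foxp1-deficient rTreg replicate 2 (-0.45, adjusted p = 0.0564). Of the sum of squares of its log2 levels, 65.2% lay on the interaction of genotype and subset, against a median of 2.92% over all tested genes. The gene (chr10:99263231-99267489, plus strand) overlaps no exon of another gene in GENCODE release M21. These genotype comparisons share libraries with the subset comparisons, so the 4 differences are not independent of each other.

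Dusp10, or MKP-5, prefers JNK and p38 to ERK. It was at 73.4 and 50.5 CPM in the WT rTreg libraries, 64.9 and 46.6 in the Foxp1-deficient rTreg libraries, 42.2 and 42.2 in the WT aTreg libraries and 35.3 and 26.2 in the Foxp1-deficient aTreg libraries. In each genotype the aTreg libraries lay below the rTreg libraries, at log2 fold change -0.51, SE 0.12, adjusted p = 0.0171 in WT and log2 fold change -0.85, SE 0.13, adjusted p = 0.00151 in Foxp1-deficient cells, short of 2-fold in both. The WT difference lost the adjusted p without WT rTreg replicate 1 (-0.39, adjusted p = 0.145) or WT aTreg replicate 1 (-0.29, adjusted p = 0.0845). Between genotypes the values were -0.15 (SE 0.12) in rTreg cells and -0.49 (SE 0.13, adjusted p = 0.0649) in aTreg cells, and neither passed. The aTreg value ran from -0.71 to -0.23 when any 1 library was left out, and it was called without WT aTreg replicate 1 (-0.71, adjusted p = 0.00968).

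Spry1 rose in activated WT cells. Sprouty proteins are themselves phosphorylated after receptor stimulation and restrain signalling to RAS, and Spry1 is induced by T cell receptor signalling. It was at 30.1 and 23.8 CPM in the WT rTreg libraries, 26 and 14.5 in the Foxp1-deficient rTreg libraries, 92.8 and 37.2 in the WT aTreg libraries and 49.3 and 24.6 in the Foxp1-deficient aTreg libraries. In WT cells both aTreg libraries exceeded both rTreg libraries, and in Foxp1-deficient cells the ranges overlapped slightly, from 24.6 to 49.3 CPM in aTreg against 14.5 to 26.0 CPM in rTreg cells. Spry1 rose 2.21-fold in WT aTreg cells (log2 fold change 1.14, SE 0.20, adjusted p = 0.00347). In Foxp1-deficient cells the difference was 1.79-fold (log2 fold change 0.84, SE 0.21, adjusted p = 0.0142), below the 2-fold limit, and it lost the adjusted p without any one of the 4 Foxp1-deficient libraries (0.0554 to 0.0925). The WT difference fell to 0.78 without WT rTreg replicate 1 and to 0.83 without WT aTreg replicate 1, under 2-fold in each case. In aTreg cells Spry1 was lower in both Foxp1-deficient libraries within their replicate number (log2 fold change -0.77, SE 0.19, adjusted p = 0.0533), just past the adjusted p limit. This difference was called with limma-voom (-0.76, adjusted p = 0.0423), DESeq2 (-0.77, adjusted p = 0.0258), no filter on low counts (-0.76, adjusted p = 1.71e-04) and the libraries of the comparison alone (-0.77, adjusted p = 0.0245). It was also called without WT rTreg replicate 1 or 2 (-0.77 in both) or WT aTreg replicate 2 (-1.04), and over all single libraries left out it ran from -1.04 to -0.44. In rTreg cells Spry1 was at -0.47 (SE 0.21), and was called without WT rTreg replicate 1 (-0.84, adjusted p = 0.0426). Its exons (chr3:37639947-37644598, plus strand) overlap Gm42922 on the opposite strand.

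Spry2, a relative of Spry1, had 1 to 6 counts in the rTreg libraries and 7 to 13 in the aTreg libraries. It was at 0.553 and 0.0786 CPM in the WT rTreg libraries, 0.797 and 0.361 in the Foxp1-deficient rTreg libraries, 1.1 and 0.449 in the WT aTreg libraries and 0.922 and 0.934 in the Foxp1-deficient aTreg libraries. No difference could be shown at that depth, and the SE of its log2 fold changes between genotypes and subsets was 0.55 to 0.77.

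Spred1 and Spred2 hold RAS in check through the RAS GTPase-activating protein neurofibromin. Spred2 was lower in aTreg than in rTreg cells, and Spred1 did not pass the adjusted p in any comparison of the edgeR fit to all libraries. With edgeR on the libraries of the comparison alone, Spred1 passed the adjusted p between Foxp1-deficient subsets (-0.36, adjusted p = 0.0355), short of 2-fold. Spred2 was at 76.3 and 69.1 CPM in the WT rTreg libraries, 79.2 and 65.3 in the Foxp1-deficient rTreg libraries, 54.9 and 49 in the WT aTreg libraries and 50 and 42.8 in the Foxp1-deficient aTreg libraries. Both aTreg libraries of each genotype lay below both of its rTreg libraries (log2 fold change -0.48, SE 0.066, adjusted p = 0.00117 in WT and log2 fold change -0.63, SE 0.067, adjusted p = 2.39e-04 in Foxp1-deficient cells), short of 2-fold. Subset accounted for 84.5% of the sum of squares of its log2 levels, against a median of 35.8% over all tested genes. Spred2 had nearly the same level in both genotypes of rTreg cells (log2 fold change -0.02, SE 0.065, adjusted p = 0.914). Spred1 was at 19.5 and 20.6 CPM in the WT rTreg libraries, 19.6 and 16.6 in the Foxp1-deficient rTreg libraries, 22.7 and 13.7 in the WT aTreg libraries and 16.3 and 12.1 in the Foxp1-deficient aTreg libraries, and its differences between groups ran from -0.36 to -0.16 (log2), with SE from 0.18 to 0.19.

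**Figure D3:**
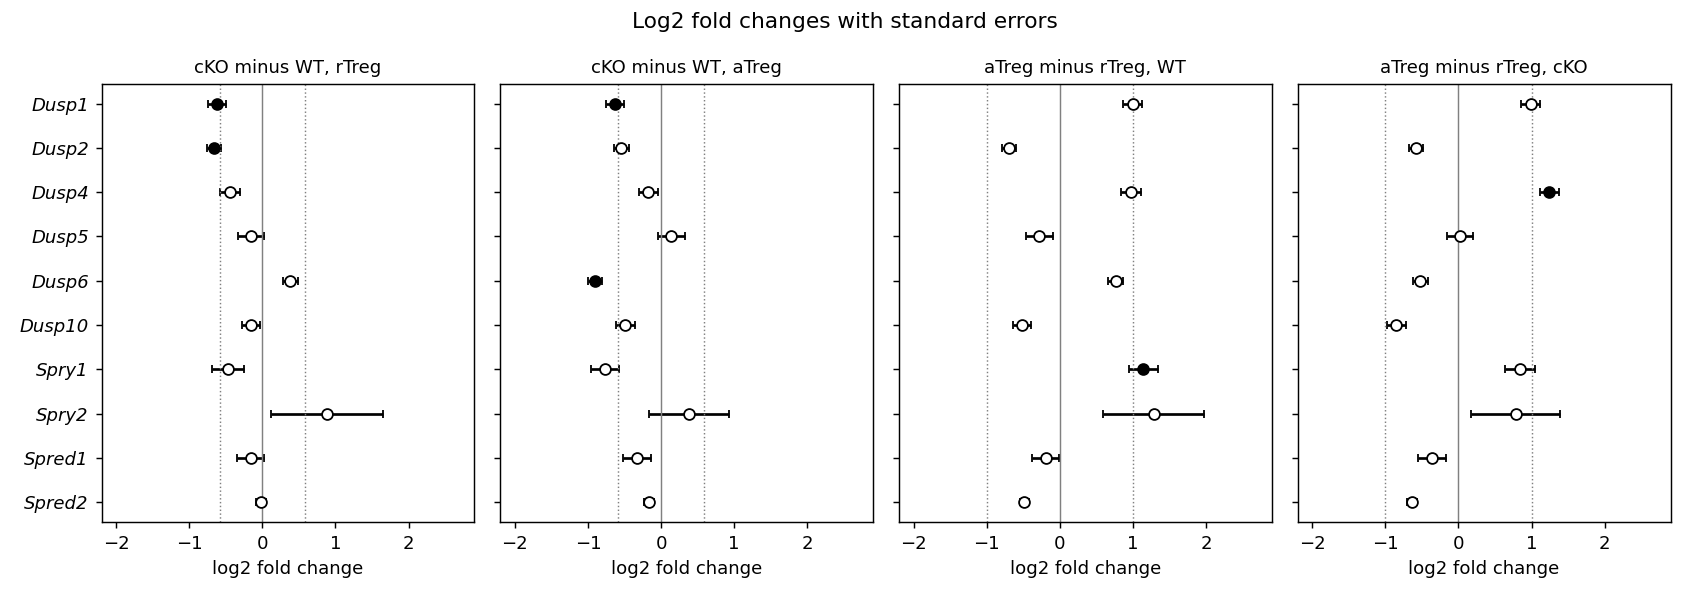
Log2 fold change (x axis) of the 10 genes (y axis) in the 4 comparisons, with bars of 1 SE. Filled points passed adjusted p of 0.05 and the fold limit drawn as dotted lines, 1.5-fold between genotypes and 2-fold between subsets; they are Dusp1 and Dusp2, then Dusp1 and Dusp6, then Spry1, then Dusp4.

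Counted over the 10 genes, 0 rose and 2 fell in Foxp1-deficient rTreg cells, where 2.9% of the 14540 genes tested were called higher and 2.7% lower. In Foxp1-deficient aTreg cells 0 rose and 2 fell, with 2.37% of all genes higher and 1.66% lower. In edgeR, 4 and 6 of the 10 had an unadjusted p under 0.05 in these comparisons, against 28.5% and 23.3% of all genes. Their median log2 fold change was -0.16 in rTreg and -0.41 in aTreg cells, against 0.0029 and 0.0018 over all genes tested. Between subsets 1 rose and 0 fell in WT cells, where 9.5% of all genes were called higher and 2.83% lower, and 1 rose and 0 fell in Foxp1-deficient cells, with 11.3% higher and 4.39% lower. In each subset comparison 7 of the 10 passed the adjusted p alone, against 31.9% of all genes in WT and 40.1% in Foxp1-deficient cells, and 5 of the 10 had positive differences. Without the replicate block none of these calls remained, and the adjusted p was 0.877 for Dusp1 and 0.312 for Dusp2 in rTreg cells, 0.899 for Dusp1 and 0.145 for Dusp6 in aTreg cells, 0.145 for Spry1 between WT subsets, 0.405 for Dusp4 between Foxp1-deficient subsets and 0.424 for the Dusp6 interaction. In that fit the members with an unadjusted p under 0.05 numbered 0 of 10 in rTreg cells (16.8% of all genes), 1 in aTreg cells (12.5%), 4 between WT subsets (29.9%), 3 between Foxp1-deficient subsets (36.1%) and 1 for the interaction (6.08%).

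Several of these genes differed more between replicate numbers than between the groups of the study. The comparison of replicate 2 with replicate 1, across the 4 groups, was added after the data were seen. Dusp1 was 3.89-fold lower in replicate 2 (log2 fold change -1.96, SE 0.091, adjusted p = 4.28e-05), Dusp4 3.38-fold (log2 fold change -1.76, SE 0.10, adjusted p = 8.89e-05), Dusp5 3.05-fold (log2 fold change -1.61, SE 0.13, adjusted p = 6.23e-04) and Spry1 1.87-fold (log2 fold change -0.90, SE 0.14, adjusted p = 0.00653). These 4 of 10 were called lower and 0 higher, against 4.72% lower and 1.41% higher among all tested genes at 1.5-fold. All 10 estimates were negative, with a median of -0.70 against -0.0092 over all genes. In 7 of the 10, replicate 2 was the lower library in all 4 groups, as it was for 20.3% of all tested genes. Replicate number accounted for 94.6% of the sum of squares of Dusp5, 72.6% of Dusp1 and 69.0% of Dusp4, with a median of 9.63% over all genes. The replicate number coincides with sex, and may coincide with the sequencing round, and these cannot be told apart in this design.

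Immediate-early genes, which are transcribed within minutes of stimulation or of cell handling, moved with the replicate number as Dusp1, Dusp4 and Dusp5 did. Of 13 such genes, 12 were lower in replicate 2 in all 4 groups and 7 were called lower, among them Fosb (-1.66), Nr4a1 (-1.79), Junb (-1.18) and Jun (-1.11, all log2). Heat-shock genes went the other way, and 2 of 5 were called higher, Hspa1b (1.78) and Hsph1 (1.51). The summed level of these 18 genes was 6682 to 8003 CPM in the replicate 1 libraries and 4702 to 5258 CPM in the replicate 2 libraries. Their part in the replicate difference of the phosphatases was not tested. Between genotypes Fosb also fell beside Dusp1, by 0.73 on the log2 scale in rTreg and by 0.59 in aTreg cells, and Jun fell by 0.91 in aTreg cells. Over the 18 genes, 0 rose and 1 fell in Foxp1-deficient rTreg cells, and 0 rose and 2 fell in Foxp1-deficient aTreg cells. The part of handling in the Dusp1 difference was not tested.

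**Figure D4:**
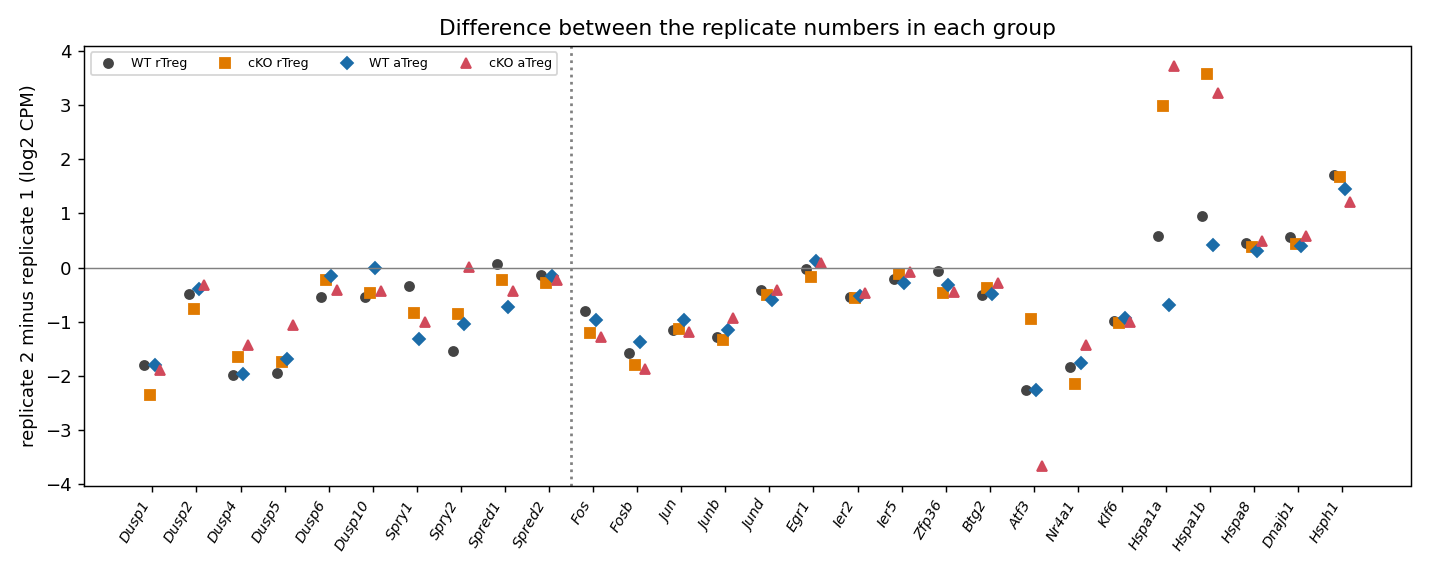
Difference in log2 CPM between replicate 2 and replicate 1 (y axis) in each of the 4 groups (symbols), for the 10 genes (left of the dotted line) and for immediate-early and heat-shock genes (right). The points of Dusp1, Dusp4 and Dusp5 lie between -2.35 and -1.05, with Fosb and Nr4a1 in the same range, and Hsph1 lies above 0 in all 4 groups.

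Myeloid markers were higher in both Foxp1-deficient rTreg libraries, and in aTreg cells mainly in Foxp1-deficient replicate 1. Over the 7 markers listed, the summed level was 0.786 to 1.93 CPM in WT rTreg cells and 5.99 to 16.3 CPM in Foxp1-deficient rTreg cells. In replicates 1 and 2 of aTreg cells it was 5.38 and 4.23 CPM in WT against 28.4 and 4.46 CPM in Foxp1-deficient cells. The defining marker Csf1r stayed at 2 to 8 counts in all libraries and Cd14 at 0 to 6, and Mpo was at 0 in both WT rTreg libraries. B cell markers were at 7.92 to 9.56 CPM in rTreg and 18.3 to 21.2 CPM in aTreg libraries, NK cell markers at 1.96 to 3.25 and 4.61 to 6.48 CPM, and CD8 markers at 12.5 to 16.7 and 6.11 to 9.98 CPM. Red cell genes summed to at most 3.51 CPM. The part of such cells in the differences of the phosphatases and Sprouty genes was not tested.

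Among the remaining members of these families, Dusp16 and Dusp9 were higher in aTreg cells. Of the 7 other classical phosphatases, Sprouty and Spred genes, 4 were tested, and 2 rose in aTreg cells of each genotype while 0 changed between genotypes. Over all tested genes, 9.5% were called higher in WT aTreg cells and 11.3% in Foxp1-deficient aTreg cells. Dusp16, which acts mainly on JNK, was at 3.59 and 2.99 CPM in the WT rTreg libraries, 2.23 and 3.18 in the Foxp1-deficient rTreg libraries, 10.1 and 5.9 in the WT aTreg libraries and 12.1 and 11.9 in the Foxp1-deficient aTreg libraries, and rose in both genotypes (log2 fold change 1.24, SE 0.28, adjusted p = 0.0132 in WT and log2 fold change 2.05, SE 0.29, adjusted p = 0.00101 in Foxp1-deficient cells). Dusp9 had at most 1 count in any rTreg library and 14 to 19 in the aTreg libraries, at least 5.82-fold higher in WT and at least 3.95-fold higher in Foxp1-deficient cells, when the floor of 3 counts is taken in each rTreg library. Dusp9 passed the filter on low counts only through its aTreg libraries, so that its difference between subsets was partly fixed by the filter. Dusp7, a cytoplasmic ERK phosphatase, was at 70.8 to 96.3 CPM, and Spred3 was at 0.319 to 1.97 CPM. Dusp8, Spry3 and Spry4 were not tested and had at most 6 counts in any library.

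The kinases and RAS regulators that these brakes act on held calls between genotypes mainly in rTreg cells. Over all tested genes, 2.9% were called higher and 2.7% lower in Foxp1-deficient rTreg cells. The shares were 2.37% higher and 1.66% lower in Foxp1-deficient aTreg cells. Of 21 RAS and ERK cascade genes tested, 1 rose and 0 fell in Foxp1-deficient rTreg cells, the RAS relative Rras2 (log2 fold change 0.77, SE 0.11, adjusted p = 0.00571), and 0 changed in aTreg cells (2 passed the adjusted p alone). Of 11 genes that switch RAS off, 0 rose and 2 fell in Foxp1-deficient rTreg cells, the RAS GTPase-activating proteins Rasal1 (log2 fold change -0.68, SE 0.065, adjusted p = 0.00128) and Nf1, which encodes neurofibromin (log2 fold change -0.61, SE 0.15, adjusted p = 0.0405), and 0 changed in aTreg cells. Of 22 JNK and p38 cascade genes tested, 1 rose and 2 fell in Foxp1-deficient rTreg cells. Map2k6, a kinase that activates p38, rose there (log2 fold change 0.76, SE 0.10, adjusted p = 0.00485) and in aTreg cells (log2 fold change 1.19, SE 0.10, adjusted p = 0.00141), from 15.6 and 15.6 CPM in WT aTreg to 36.5 and 34.9 CPM in Foxp1-deficient aTreg libraries. Mapk12, which encodes a p38 kinase, fell in rTreg cells (log2 fold change -1.42, SE 0.19, adjusted p = 0.00474), as did the stress sensor Gadd45a (log2 fold change -0.89, SE 0.14, adjusted p = 0.00838).

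Between subsets, 9.5% of all tested genes were called higher and 2.83% lower in WT aTreg cells. The shares in Foxp1-deficient aTreg cells were 11.3% and 4.39%. Of the 21 cascade genes, 1 rose and 1 fell in each genotype. They were the RAF scaffold Ksr1 (1.21 in WT and 1.26 in Foxp1-deficient cells) and Rras2 (-1.20 and -1.40, log2). Of the 11 RAS-off genes, the adaptor Dok1 rose in both (1.06 and 1.29) and the GTPase-activating protein Rasa3 fell in WT cells (-1.18). Of the 22 JNK and p38 genes, Gadd45b rose in both (1.59 and 1.62), and Mapk11 fell in WT cells (-1.07). In Foxp1-deficient cells Map2k3 rose (1.21) and Map3k8 fell (-1.32).

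Genes known to respond to ERK were called only higher between genotypes and between WT subsets, and in both directions between Foxp1-deficient subsets. Of 17 tested, 1 rose and 0 fell in Foxp1-deficient rTreg cells and 2 rose and 0 fell in Foxp1-deficient aTreg cells. The shares of all tested genes called higher there were 2.9% and 2.37%. The AP-1 gene Fosl2 rose in both rTreg and aTreg cells (log2 fold change 0.72, SE 0.18, adjusted p = 0.0445 and log2 fold change 0.77, SE 0.16, adjusted p = 0.0346). Ier3 rose in aTreg cells, with 20 and 12 counts against 3 and 1. It reached 10 counts only in Foxp1-deficient libraries, so its genotype difference was partly fixed by the filter. Between subsets 2 rose in WT and 4 rose and 2 fell in Foxp1-deficient cells. Over all tested genes, 9.5% were called higher in WT, and 11.3% higher and 4.39% lower in Foxp1-deficient aTreg cells. Egr2 (1.32 and 1.82) and Nfil3 (2.70 and 3.40) rose in aTreg cells of both genotypes, Egr3 rose in Foxp1-deficient cells (1.13) and so did Etv5 (1.10), named after its value was seen, while Myc (-1.13) and Fosl1 (-1.32) fell there (all log2).

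Among 12071 other tested genes, the profile over the 8 libraries closest to each member was described by the root-mean-square difference of centred log2 CPM. Trib1 and Fosb were closest to Dusp1 (0.317 and 0.347), Trib1 and Gla to Dusp4 (0.308 and 0.329), and Trp53inp2 and Nr4a1 to Dusp5 (0.127 and 0.233). Slc7a4 and Ckb were closest to Dusp6 (0.147 and 0.153), Celsr2 and Zfp281 to Dusp2 (0.101 and 0.155), and Rad9b and Otud1 to Dusp10 (0.0767 and 0.113). Tmem8b and Kcnmb1 stood nearest to Spry1 (0.194 and 0.256), Rsph1 and Pctp to Spry2 (0.197 and 0.253), Tmem42 and Pisd to Spred1 (0.105 and 0.108) and Nop56 and Cry2 to Spred2 (0.0568 and 0.0630). A gene that varies little is close to many others, so these distances are not comparable between members.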

How the data were processed

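RNA from 8 sorted Treg samples (total RNA, Trizol; NEBNext Ultra libraries) was sequenced by the authors. Reads were checked with FastQC, trimmed with trim_galore, cleared of duplicates with Picard and counted per gene with htseq-count; the submitters' processing notes name HISAT2 2.0.5, HTSeq and mm10. The deposited counts are whole reads per gene, without normalization. The deposited FPKM values are those counts divided by the library total and 1 length per gene (relative spread at most 8.04e-06 on 11394 genes), and served here for levels between genes and as alternatives. The symbols are those of the files, gene positions are from GENCODE M21 (GRCm38), and no value column was left unmatched to a sample.

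The test was the quasi-likelihood F test of edgeR 4.0.16 in R 4.3.3 (glmQLFit and glmQLFTest, TMM, filterByExpr with a minimum count of 10) on 14540 of 27594 genes, with a mean for each of 4 groups and the replicate number as a block, after the paired limma analysis of the study. Calls needed an adjusted p (Benjamini-Hochberg over all tested genes) under 0.05 and 1.5-fold between genotypes or 2-fold between subsets, and for the interaction the adjusted p alone. SE is the log2 fold change over the square root of F. Deviations of same-numbered libraries from their group means correlated at 0.462, 0.380, 0.597 and 0.548 in the 4 comparisons, over genes. The pipeline was tested on simulated data. limma 3.58.1 and DESeq2 1.42.0 gave alternatives.

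The members, gene lists and tests were chosen with earlier results of these data known. All members are named, and from each pathway list up to 3 genes with the largest increase and 3 with the largest decrease per comparison, among called genes that moved alike in both pairs; each member also has the 2 nearest genes in profile.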

Additional observations from a re-analysis of the deposited data

Results flagged for a closer look

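Dusp6 was marked out because its genotype difference was not the same in the 2 subsets. The difference in aTreg cells minus that in rTreg cells was -1.284 on the log2 scale (edgeR interaction term, adjusted p = 0.0242, pairs of libraries at -0.996 and -1.56), and the sign was the same in 2 of 2 pairs. Groups of 2 libraries are too small for a check of single libraries that stand apart.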

How the results depend on the processing

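Depth and 2 libraries a group limit these results, Spry2 most, at 1 to 13 counts. Of 976 member values over 17 alternatives (8 of them leaving out a library, which leaves a group with 1 library assumed to vary like the others), 881 kept their direction and their side of the limits, 35 fell short of a limit, 29 came past one and 31 changed sign. The median over all genes never moved by more than 0.1. The cause of these changes was not tested.

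Without the replicate block the members called were 0 in rTreg genotype, 0 in aTreg genotype, 0 between WT subsets, 0 between Foxp1-deficient subsets and 0 in the interaction, so every member call rests on the pairing. All genes called went from 814 to 266, 586 to 77, 1793 to 1342, 2282 to 1821 and 48 to 0.

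With limma on log2(FPKM + 1), log2(FPKM + 0.1) and log2(FPKM + 1) without a filter, the members called were 1, 1 and 0 in rTreg genotype, 1, 1 and 0 in aTreg genotype, 2, 3 and 1 between WT subsets, 2, 2 and 2 between Foxp1-deficient subsets and 0, 0 and 0 in the interaction (1 at an unadjusted p under 0.05 in each), and all genes called 366, 446 and 128, then 129, 107 and 19, then 787, 1027 and 772, then 1087, 1393 and 1125, then 2, 2 and 1. With log2(FPKM + 0.1) 52 genes were higher and 55 lower in aTreg genotype, against 344 and 242. Without a filter on low counts 2 members were called between WT and 2 between Foxp1-deficient subsets, and all genes called in aTreg genotype and the interaction rose to 1035 and 573. In aTreg genotype limma-voom, DESeq2, no filter on low counts and the comparison alone each called 3 members, Spry1 being the addition. DESeq2 called 2 members between Foxp1-deficient subsets and 272 genes in the interaction. The fit to the libraries of the comparison alone called 349 genes in aTreg genotype. In the replicate comparison, DESeq2 called 529 genes in place of 891, and the FPKM fits 402, 490 and 160; Spry1 lost its call in the last (-0.84).

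For Dusp5 in aTreg genotype the value was -0.0109 without the block; for Dusp5 between Foxp1-deficient subsets it was -0.1399 without the block, -0.0477 with limma-voom and -0.0118 with the comparison alone. For the Dusp1 interaction it was 0.0075 with DESeq2, 0.0047 with median-of-ratios size factors, 0.0249 without a filter and 0.0040 with log2(FPKM + 0.1).

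Leaving out single libraries gave 0 to 3 members called in rTreg genotype, 0 to 4 in aTreg genotype (4 without WT aTreg replicate 1, Dusp2 and Dusp10 being added), 1 to 2 between WT subsets, 1 to 2 between Foxp1-deficient subsets, 0 to 1 in the interaction and 4 in every replicate comparison. Log2 values that changed sign ran as follows: in rTreg genotype Dusp5 from -0.3768 to 0.0848, Spred1 from -0.4246 to 0.1278 and Spred2 from -0.0717 to 0.0364; in aTreg genotype Dusp4 from -0.3948 to 0.0521, Dusp5 from -0.2459 to 0.4993 and Spry2 from -0.3305 to 1.1522. Between WT subsets Spred1 ran from -0.4662 to 0.1008, and between Foxp1-deficient subsets Dusp5 from -0.3657 to 0.3813, with adjusted p of 0.0437 and 0.0305 at these ends. In the interaction Dusp1 ran from -0.2517 to 0.2720, Dusp2 from -0.0530 to 0.3064, Dusp5 from -0.0979 to 0.6493, Spry1 from -0.6698 to 0.0736, Spry2 from -1.8784 to 0.1821 and Spred1 from -0.4586 to 0.1168.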

Other observations

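Atypical dual-specificity phosphatases, small enzymes without the MAPK-binding domain of the classical ones, are described here by their levels in the subsets. Of 9 tested, 2 rose in WT and 3 rose in Foxp1-deficient aTreg cells, and 0 fell. Over all tested genes, 9.5% were called higher and 2.83% lower in WT, and 11.3% and 4.39% in Foxp1-deficient aTreg cells. Between genotypes 0 of the 9 changed, and 0 passed the adjusted p alone in edgeR. Dusp14 had at most 1 count in any rTreg library and 60 to 74 counts in the aTreg libraries, at least 22.8-fold higher in WT and at least 15.0-fold higher in Foxp1-deficient cells against the floor of 3 counts per rTreg library. Dusp3, or VHR, was at 0 in all 4 rTreg libraries and at 12 to 30 counts in the aTreg libraries, at least 4.58-fold higher in WT and at least 6.36-fold higher in Foxp1-deficient cells. Dusp18 was called in Foxp1-deficient cells with 10 and 6 counts against 0 and 0, at least 1.83-fold higher. These 3 genes passed the filter on low counts only through their aTreg libraries, so that their differences between subsets were partly fixed by the filter.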
